A study of Mus musculus with 11 samples.

Results

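Ascl2, Rnf43, Fzd7 and Ccnd2 are 4 genes of the Wnt/beta-catenin pathway. They were picked by name from the signature that the authors deposited for granulocyte-macrophage progenitors (GMPs) with activated beta-catenin, which lists 638 genes. GMPs, the marrow precursors of neutrophils and monocytes, were sorted as lineage-negative cells without Sca-1 and with c-Kit, CD34 and high Fc gamma receptor, from pools of mice, and profiled on Affymetrix mouse arrays in 3 groups. The control group (4 arrays) is labelled MxCre–Ctnnb1(Ex3)fl/+, an excisable allele of beta-catenin, with the mark after MxCre read as a minus sign, since the series text writes MxCre+ for inducible mice. The Irf8 KO group (3 arrays) lacks the transcription factor Irf8 and, per the series text, carries the same floxed allele. The Irf8 KO / b-cat(Ex3) group (4 arrays) lacks Irf8 and carries the excised allele, Ctnnb1(Ex3)Δ/+, whose product escapes degradation. Every mouse, controls included, was given 400 µg of the interferon inducer poly(I:C) on days 0, 3 and 5, and marrow harvest followed the last of these by 10 to 14 days. The Mx promoter that drives the recombinase responds to interferon in many cell types and is not restricted to GMPs. Arrays with activated beta-catenin and intact Irf8 are not analysed here, so beta-catenin activation is seen only on the Irf8 KO background, and the labels name no ages. The series addresses the passage of the leukaemia-like disease of Irf8-deficient mice to blast crisis.

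In the Wnt pathway, secreted ligands bind Frizzled receptors and their Lrp co-receptors, which halts the destruction complex that otherwise marks beta-catenin for degradation. Beta-catenin then joins TCF/LEF factors on DNA and raises their target genes, several of which act back on the pathway. Fzd7 is one of the Frizzled receptors. Rnf43 is a membrane ubiquitin ligase that removes Frizzled receptors from the cell surface and is itself a Wnt target in the intestine. Ascl2 is a helix-loop-helix transcription factor and Wnt target of intestinal stem cells, and Ccnd2 is a D-type cyclin that drives cells from G1 into S phase.

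In the authors' deposited table Ascl2, Rnf43 and Fzd7 are positive and Ccnd2 is negative, by 1.56 to 2.75-fold. For Ascl2 the authors' deposited table gives a log2 fold change of 1.46, or 2.75-fold (p = 0.000228), which is position 53 of the 394 positive genes by size. For Rnf43 the authors' deposited table gives 1.23, or 2.35-fold (p = 0.00111), position 102. For Fzd7 the authors' deposited table gives 0.70, or 1.63-fold (p = 0.000557), position 311, and for Ccnd2 −0.64, or 1.56-fold lower (p = 0.000513), position 221 of the 244 negative genes. The 4 genes thus ranged from the upper part of the positive side to the weakest values kept, since no row of the authors' deposited table lay closer to 0 than 0.586, and the largest p-value was 0.0016. These values chose the genes and are given as a description, with no test. No source used here names the test behind the authors' p-values.

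The sequence around the transcription start is shown because TCF/LEF factors bind short motifs there and elsewhere. RefSeq windows (GRCm38.p6, 250 bases before to 50 after a start) were found for 3 of the 4 genes, Ascl2, Rnf43 and Fzd7, and searched on both strands for the letters CTTTG followed by AA, AT, TA or TT. Letters in capitals mark a match, and all windows read 5′ to 3′ along the gene.
Fzd7, chr1:59481897-59482196, plus strand: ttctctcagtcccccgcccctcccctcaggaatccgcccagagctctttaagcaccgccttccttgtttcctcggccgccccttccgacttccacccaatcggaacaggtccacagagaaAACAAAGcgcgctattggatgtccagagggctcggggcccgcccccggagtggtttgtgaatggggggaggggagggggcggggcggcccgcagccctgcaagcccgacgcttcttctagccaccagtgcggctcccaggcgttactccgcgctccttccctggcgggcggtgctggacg
Ascl2, chr7:142969215-142969514, minus strand: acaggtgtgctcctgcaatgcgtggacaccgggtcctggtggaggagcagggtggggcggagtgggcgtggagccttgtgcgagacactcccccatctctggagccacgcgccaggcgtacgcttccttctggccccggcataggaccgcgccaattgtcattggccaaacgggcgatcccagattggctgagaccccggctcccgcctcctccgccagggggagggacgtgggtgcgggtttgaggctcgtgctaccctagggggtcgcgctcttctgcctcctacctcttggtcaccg
Rnf43, upstream start, chr11:87662837-87663136, plus strand: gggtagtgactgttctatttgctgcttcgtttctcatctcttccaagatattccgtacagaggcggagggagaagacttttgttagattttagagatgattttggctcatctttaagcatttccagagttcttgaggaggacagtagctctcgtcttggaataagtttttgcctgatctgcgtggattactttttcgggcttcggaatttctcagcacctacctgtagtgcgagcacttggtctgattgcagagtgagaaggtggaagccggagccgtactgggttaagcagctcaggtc
Rnf43, downstream start, chr11:87699647-87699946, plus strand: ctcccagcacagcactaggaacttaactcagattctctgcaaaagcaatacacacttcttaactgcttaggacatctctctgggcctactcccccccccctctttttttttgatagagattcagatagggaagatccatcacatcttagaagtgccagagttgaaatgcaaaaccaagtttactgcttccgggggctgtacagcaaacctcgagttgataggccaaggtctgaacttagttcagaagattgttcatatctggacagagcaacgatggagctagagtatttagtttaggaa
Fzd7 held 1 match, AACAAAG, which reads CTTTGTT on the other strand, beginning 130 bases before the start. The other 3 windows held 0. Of all 32851 windows 16.9% held at least 1 of the 4 motifs and 5.85% held CTTTGTT, so a single match is common. The Fzd7 and Ascl2 windows were rich in G and C (66.7 and 67% against a median of 52.7%) with 24 and 23 CpG dinucleotides against a median of 7, and the Rnf43 windows were not (46.7% with 10 and 44.3% with 3).

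The table does not name its 2 groups, and the values per array settle them. Each of the 638 deposited log2 fold changes equalled, at all 3 deposited decimals, the difference between the means of the Irf8 KO / b-cat(Ex3) and the control arrays in at least 1 of the 45037 probe sets. With the sign turned 445 of 638 found such a match, for Irf8 KO minus control 375, and for Irf8 KO / b-cat(Ex3) minus Irf8 KO 216. Positive values therefore mean higher in the Irf8 KO / b-cat(Ex3) GMPs than in control GMPs, and the 2 groups differ in Irf8 as well as in beta-catenin. The same match links genes to probe sets, for which no gene names were used here otherwise. It gave a single probe set and a single gene for 197 of the 638 genes. Rnf43 was among them, with probe set 1427008_PM_at. Every link between a gene and a probe set rests on this equality alone. Ascl2 shared its value with the Fc receptor gene Fcgr4, and 2 probe sets held that value. By equality alone either can be that of Ascl2. In the authors' deposited table Fcgr4 had a larger p-value (0.00141) than Ascl2 (0.000228). The limma SE of the matched difference was 0.34 in 1425225_PM_at and 0.28 in 1432018_PM_at. As for the neutrophil gene Cd177, 1425225_PM_at was highest in replicate 1 of Irf8 KO and replicate 4 of Irf8 KO / b-cat(Ex3). 1432018_PM_at was highest in replicate 2 of these groups. 1425225_PM_at may thus be that of Fcgr4, which was not settled. Fzd7 had 6 candidate probe sets and Ccnd2 had 12, and which of them is the gene's own was not settled.

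The Rnf43 group means were ordered control, Irf8 KO, Irf8 KO / b-cat(Ex3), with overlap between neighbours. The signal was low, with a mean over all arrays at percentile 55.1 of all probe sets. The 4 control arrays read 3.37, 3.93, 4.02 and 3.75 on the log2 scale (mean 3.77 ± 0.29 SD, n = 4). That control mean lay below every array median (3.92 to 4.09). The Irf8 KO arrays read 4.55, 3.73 and 4.75 (4.35 ± 0.54 SD, n = 3), and the Irf8 KO / b-cat(Ex3) arrays 5.28, 5.98, 4.19 and 4.54 (5.00 ± 0.80 SD, n = 4). Every array with activated beta-catenin lay above every control array. That separation is favoured by the choice of the gene on this difference, and these 2 groups did not overlap in 12.1% of all probe sets. Replicate 2 of the Irf8 KO group lay inside the control range, and replicates 3 and 4 with activated beta-catenin lay inside the Irf8 KO range. The mean difference from control was 0.58 ± 0.37 (SE of the limma fit) in Irf8 KO GMPs, and a further 0.65 ± 0.37 separated Irf8 KO from Irf8 KO / b-cat(Ex3) GMPs. The second difference was 0.32 without replicate 2 of the Irf8 KO / b-cat(Ex3) group and 0.35 without replicate 2 of the Irf8 KO group. Without that Irf8 KO array the first difference was 0.88, and without replicate 3 of that group 0.38.

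The 2 Ascl2 candidates gave similar steps and differed in which arrays were high. Both were matched on the same whole difference, which favours separation of the control from the Irf8 KO / b-cat(Ex3) arrays. The 2 steps add up to that difference, so the likeness of the candidates is no test. The mean signal of 1432018_PM_at was low, at percentile 43.5 of all probe sets, and that of 1425225_PM_at stood at percentile 69.2. In probe set 1432018_PM_at the control arrays read 3.01, 2.49, 2.78 and 3.23 (2.88 ± 0.32 SD, n = 4), the Irf8 KO arrays 3.57, 4.00 and 3.61 (3.73 ± 0.24 SD, n = 3) and the Irf8 KO / b-cat(Ex3) arrays 4.14, 5.28, 4.15 and 3.77 (4.34 ± 0.65 SD, n = 4). There the controls stood below all other arrays, the 2 Irf8 KO groups overlapped, and replicate 2 with activated beta-catenin was the highest, as it was for Rnf43. Control and Irf8 KO arrays did not overlap in 13.9% of all probe sets. In probe set 1425225_PM_at the control arrays read 4.38, 4.93, 4.56 and 5.50 (4.84 ± 0.50 SD, n = 4), the Irf8 KO arrays 6.48, 5.64 and 5.00 (5.71 ± 0.74 SD, n = 3) and the Irf8 KO / b-cat(Ex3) arrays 5.98, 5.79, 6.60 and 6.84 (6.30 ± 0.50 SD, n = 4). There the Irf8 KO arrays overlapped both other groups, and replicate 4 with activated beta-catenin was the highest. The step from control to Irf8 KO was 0.85 ± 0.30 (SE) or 0.86 ± 0.36, and the step from Irf8 KO to Irf8 KO / b-cat(Ex3) was 0.61 ± 0.30 or 0.59 ± 0.36. In 1432018_PM_at the second step was 0.30 without replicate 2 of the Irf8 KO / b-cat(Ex3) group. In 1425225_PM_at the first step was 0.48 without replicate 1 of the Irf8 KO group, and the second was 0.98 without that array and 0.24 without replicate 3 of the same group.

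**Figure D1:**
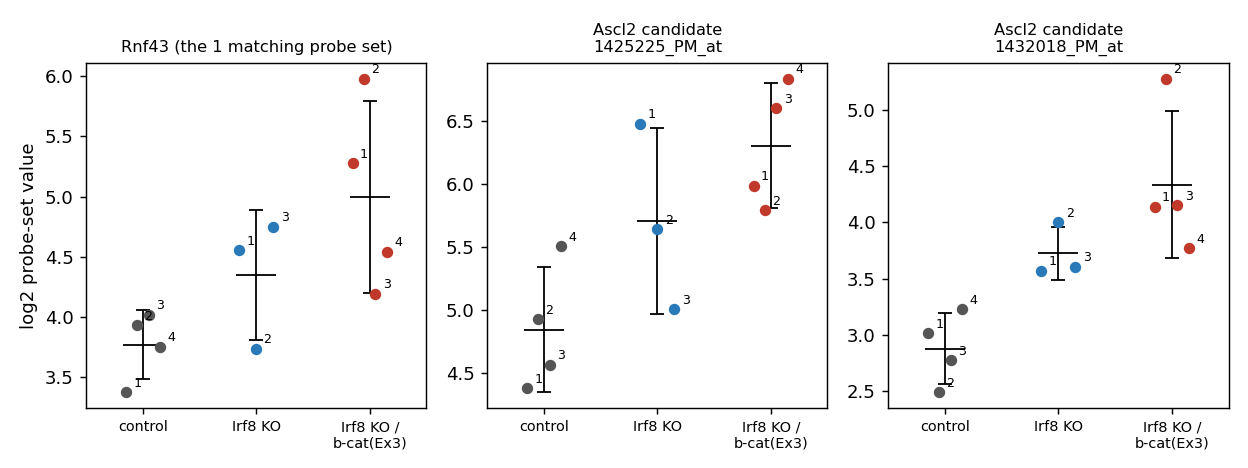
Log2 probe-set values of each array (points, numbered by replicate) for Rnf43 and for the 2 candidate probe sets of Ascl2 in the 3 groups, with group mean and SD (black). All Irf8 KO / b-cat(Ex3) arrays lie above all control arrays in each panel, which the choice of the genes on this difference favours. The Irf8 KO arrays overlap those with activated beta-catenin.

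For Fzd7 and Ccnd2 only what their candidates share can be said. Across the 6 candidates of Fzd7 the Irf8 KO mean was above control in 6, by 0.24 to 0.65 with SEs of 0.11 to 0.19, and the Irf8 KO / b-cat(Ex3) mean was above Irf8 KO in 6, by 0.05 to 0.46. Across the 12 candidates of Ccnd2 the Irf8 KO mean was below control in 12, by a difference of −0.61 to −0.14 with SEs of 0.11 to 0.56, and the second step was negative in 12, from −0.49 to −0.03. The 2 steps add up to the value by which the candidates were matched, so their shared sign is no test. It was not kept in every setting, since the lowest second step of Fzd7 was −0.02 with the replicate block, and the highest Ccnd2 steps reached 0.16 without control replicate 1 and 0.15 without Irf8 KO replicate 3. The split between the steps was not fixed by the match, and the first step ran from 34.5 to 92.3% of the whole difference for Fzd7 and from 22.3 to 95.7% for Ccnd2.

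**Figure D2:**
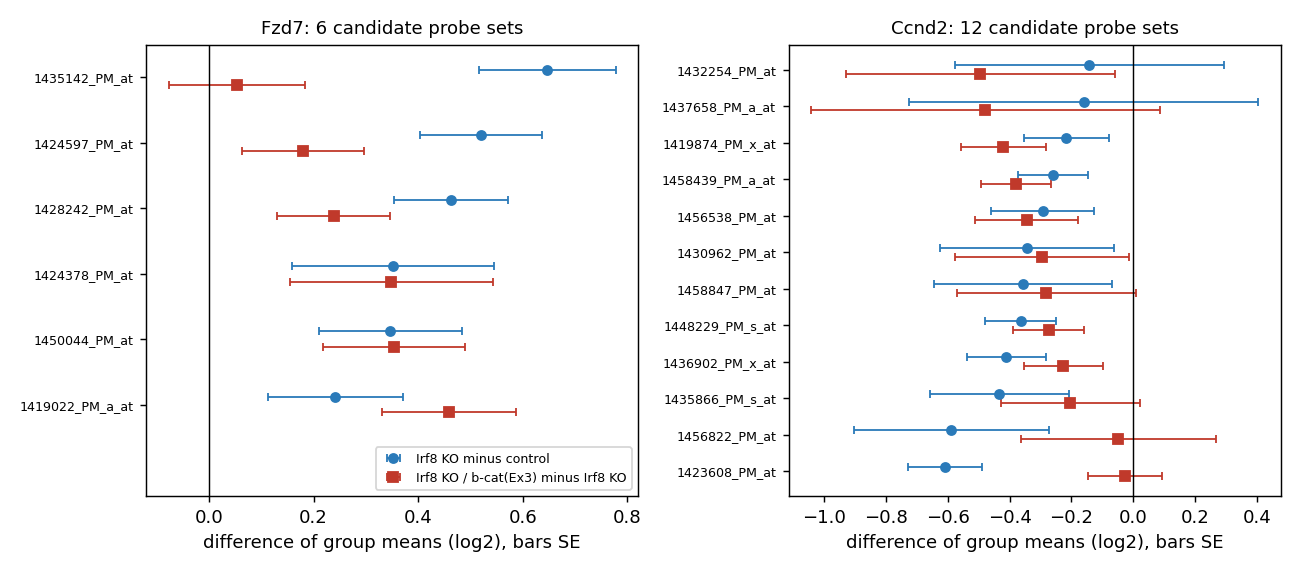
Differences of group means (log2, bars SE) for each candidate probe set of Fzd7 and Ccnd2, with Irf8 KO minus control in blue circles and Irf8 KO / b-cat(Ex3) minus Irf8 KO in red squares. The first step runs from 0.24 to 0.65 in the Fzd7 candidates and from −0.61 to −0.14 in those of Ccnd2.

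Irf8 KO / b-cat(Ex3) and Irf8 KO GMPs both lack Irf8 and differ, per the labels, in the beta-catenin allele. Whether the Irf8 KO mice carried MxCre is not stated. With limma over all 11 arrays and Benjamini-Hochberg adjustment, 2 of 45037 probe sets passed an adjusted p of 0.05 (0.00444%), and 3182 had an unadjusted p under 0.05 (7.07%). Of the 21 candidates of the 4 genes, 0 passed, and 6 had an unadjusted p under 0.05 in the same limma fit. One of the 2 probe sets that passed, 1423570_PM_at, was lower with activated beta-catenin (−1.54, limma adjusted p = 0.00352) and has no settled gene. In it Irf8 KO was above control (0.86, limma adjusted p = 0.00623), and Irf8 KO / b-cat(Ex3) differed from control by −0.68. The other, that of the interferon-induced antiviral enzyme Oas3, was higher (2.65, limma adjusted p = 0.03), a call lost in 9 of the 11 fits that left out an array, in contrast to 1423570_PM_at, called in all 11. Neither passed when only these 2 groups were fitted (limma adjusted p = 0.0736 and 0.383). Irf8 KO against control called 789 probe sets (1.75%) with limma, among them 3 of the 21 candidates, 2 of Fzd7 and 1 of Ccnd2. Irf8 KO / b-cat(Ex3) against control, the comparison that chose the 4 genes, called 2761 (6.13%), of which 1535 were higher, or 1850 of 2732 with each array centred on its median. The 3 comparisons share arrays, and the candidates were matched on the sum of the first 2, so their counts are descriptions. The 21 candidates stand for the deposited values of 4 genes. Most are likely probe sets of other genes, so counts over them are not counts of the members. Groups did not overlap in 14 of the 21 candidates between control and Irf8 KO / b-cat(Ex3), against 12.1% of all probe sets. They did not overlap in 3 between Irf8 KO and Irf8 KO / b-cat(Ex3), against 6.74% of all probe sets, and in 9 between control and Irf8 KO, against 13.9%. The match on the whole difference favours the first count, and the other 2 counts through the steps that make it up.

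The place of the Irf8 KO group between the other 2 groups does not enter the difference of means in the signature, because those 2 groups have 4 arrays each. The authors named the signature progression-specific. Whether the Irf8 KO arrays entered their p-values or a further filter, and so the choice of rows, is not known. The place of the Irf8 KO group may thus not be free of the selection. The distance of the Irf8 KO mean from the midpoint of the other 2 groups was tested, a comparison added after the data were seen. For Rnf43 the Irf8 KO mean lay 0.04 below the midpoint (−0.04 ± 0.33 SE, limma adjusted p = 0.993). For Ascl2 it lay above, by 0.12 ± 0.26 (SE, limma adjusted p = 0.967) or 0.14 ± 0.32 (SE, limma adjusted p = 0.97). Among the candidates it ran from −0.11 to 0.30 for Fzd7 and from −0.29 to 0.18 for Ccnd2. In this limma fit 45 of 45037 probe sets passed (0.0999%), and of the 21 candidates 0 passed. In the same fit 2 of the 21 had an unadjusted p under 0.05, against 7.09% of all probe sets. Most of the 21 are likely probe sets of other genes, so these counts say nothing of the 4 genes. Without Irf8 KO replicate 2 the Rnf43 value was 0.27, and without Irf8 KO replicate 1 that of the Ascl2 candidate 1425225_PM_at was −0.25.

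The same position can be put as a share, with control at 0 and the Irf8 KO / b-cat(Ex3) mean at the full difference. A share of 50% is the midpoint. A gene picked from chance variation on the whole difference alone would also lie there on average, so shares near it carry no information on either step. The share at the Irf8 KO mean was 46.9% for Rnf43 and 58.1 or 59.3% for the Ascl2 candidates. Single arrays moved it widely, to 71.8% for Rnf43 without Irf8 KO replicate 2 and to 30.5% without replicate 3 of that group, and to 32.9% for the Ascl2 candidate 1425225_PM_at without Irf8 KO replicate 1. The median over the 197 signature genes with 1 probe set was 63.3%, with quartiles at 47.5 and 76.1%, and ran from 54.8 to 69.9% with each array left out. Rnf43 was just below the lower quartile and Ascl2 between the quartiles, and these places shift with single arrays.

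**Figure D3:**
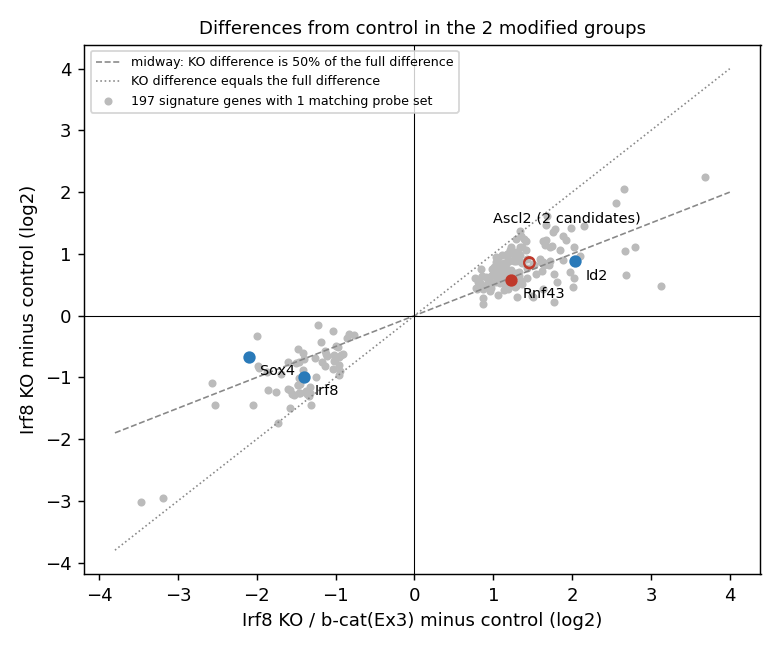
Difference from control in Irf8 KO GMPs (vertical axis) against that in Irf8 KO / b-cat(Ex3) GMPs (horizontal axis), both log2, for the 197 signature genes with 1 matching probe set (grey), with Rnf43 (red), both Ascl2 candidates (open red, overlapping) and Id2, Sox4 and Irf8 (blue). The dashed line marks 50% of the full difference, where Rnf43 lies at 46.9%, and the dotted line marks equal differences.

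Beside these 4 genes the signature holds Id2, Sox4 and Ctnnbip1 of the Wnt lists. Of 150 genes on 7 lists of Wnt and D-type cyclin genes, 7 were in the signature (4.67%), 5 positive and 2 negative, with a median log2 fold change of 0.70 in the authors' deposited table, against 0.68 over all 638 genes. Of the 21 ligand genes and of the 26 genes of the destruction complex and Dishevelled group, 0 were listed. The receptors were represented by Fzd7 alone of 16 genes, the receptor-level regulators by Rnf43 alone of 23 and the D-type cyclins with their partners and inhibitors by Ccnd2 alone of 22. Ctnnbip1, which binds beta-catenin and keeps it from TCF factors, was the 1 listed nuclear factor of 22, at 0.61 in the authors' deposited table (p = 0.000639), with 4 candidate probe sets. Of 32 Wnt target genes 6 were listed, the 4 genes above with Id2 and Sox4. How many genes the array measures is not used here, so these shares have no background, and membership of the table is not evidence that a list moved, since its rows were selected on these arrays. The table says nothing of Axin2, Lef1, Tcf7, Tcf7l2, Lgr5, Znrf3, Nkd1, Ctnnb1, Myc, Ccnd1 and Ccnd3, which were not among the 638 genes and whose probe sets were not named here.

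Id2 and Sox4, the other targets, each had 1 probe set and went opposite ways. Id2, an inhibitor of helix-loop-helix factors, read 4.13, 4.25, 3.98 and 5.62 in controls, 5.92, 5.33 and 4.87 in Irf8 KO GMPs and 6.07, 5.74, 6.65 and 7.67 in Irf8 KO / b-cat(Ex3) GMPs. Control replicate 4 was far above the other controls and inside the Irf8 KO range. The 2 steps of Id2 were 0.88 ± 0.47 (SE) and 1.16 ± 0.47. Sox4, a transcription factor of early progenitors, read 8.50, 8.07, 7.72 and 7.94 in controls, 7.22, 7.11 and 7.82 in Irf8 KO GMPs and 5.73, 6.66, 5.68 and 5.77 in Irf8 KO / b-cat(Ex3) GMPs. All 4 Sox4 values with activated beta-catenin lay below all others, and the second step (−1.43 ± 0.26 SE) was larger than the first (−0.67 ± 0.26 SE). Membership of the signature favours such separation from control, and the 2 Irf8 KO groups did not overlap in 6.74% of all probe sets. The first step was 43.1% of the whole difference for Id2 and 32.0% for Sox4, or 25.4 to 42.5% for Sox4 with each array left out. Neither gene was among the 2 probe sets called between Irf8 KO and Irf8 KO / b-cat(Ex3).

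**Figure D4:**
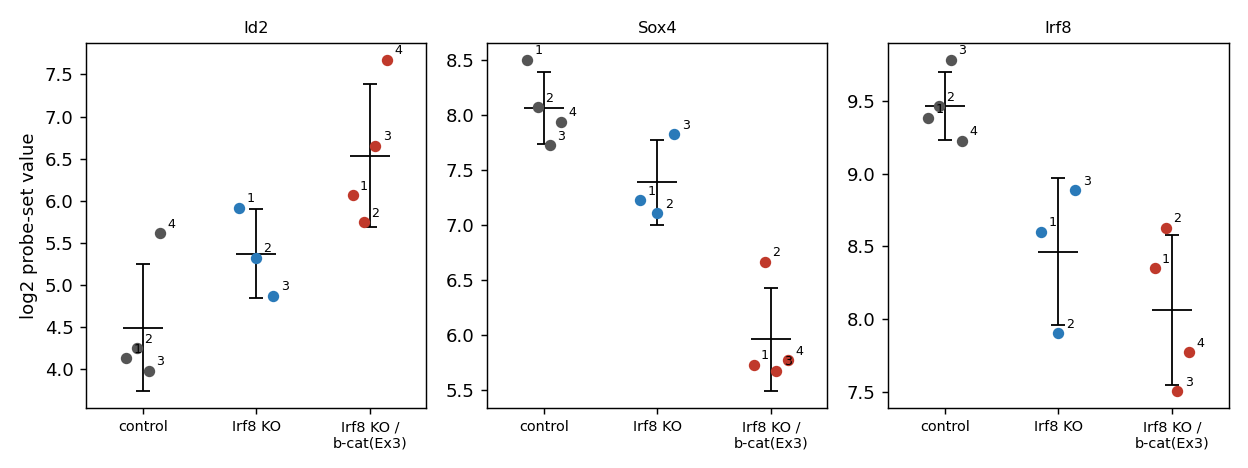
Log2 probe-set values of each array (points, numbered by replicate) for the Wnt targets Id2 and Sox4 and for Irf8, the deleted gene, in the 3 groups, with group mean and SD (black). Sox4 values with activated beta-catenin lie below all others, and control replicate 4 stands above the other controls for Id2.

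Irf8 read 9.23 to 9.78 in controls, 7.90 to 8.89 in Irf8 KO GMPs and 7.51 to 8.63 in Irf8 KO / b-cat(Ex3) GMPs, so both knockout groups lay below all controls but kept a signal. Of all probe sets, 13.9% did not overlap between control and Irf8 KO, and 12.1% between control and Irf8 KO / b-cat(Ex3). Which part of the gene the probe set covers is unknown here, so it does not check the deletion. Ctnnb1 has no named probe set here, so excision was not checked on the arrays.

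Markers of other cells that are in the signature differed between the groups, and their part in the Wnt gene differences was not tested. The signature was selected on the difference of Irf8 KO / b-cat(Ex3) from control, so a shift of its markers is favoured by that choice. Of 10 GMP markers 0 were in the signature, so the labelled cell type was not checked against them. Cd177, the 1 neutrophil marker of 13 with a named probe set, read 3.73 to 6.82 in controls, 6.32 to 7.54 in Irf8 KO and 7.35 to 9.57 in Irf8 KO / b-cat(Ex3) GMPs. The erythroid markers Gata1 and Car1, 2 of 11, had a mean over both genes of 5.00 to 5.84 in controls, 3.19 to 3.46 in Irf8 KO and 3.02 to 3.29 in Irf8 KO / b-cat(Ex3) GMPs. Klf4, the 1 monocyte and dendritic cell marker of 12, read 7.22 to 7.91, 3.72 to 5.67 and 3.48 to 5.08. Of 9 basophil, mast cell and eosinophil markers 2 were in the signature, of 9 stem cell markers 1 and of 11 lymphoid markers 0, none with a single probe set, so their levels and those of the remaining markers were not analysed here. In sorted bulk samples fewer cells of a type and less RNA per cell cannot be told apart. Control replicate 4 had the highest Cd177 of the controls, and without it the difference of Irf8 KO / b-cat(Ex3) from control was 1.22 for Rnf43, 1.58 or 1.68 for Ascl2, 2.41 for Id2 and −2.14 for Sox4.

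The genes whose values ran most like those of Rnf43 over the 11 arrays, among 166 brighter signature genes with 1 probe set, were Evpl (Pearson r = 0.92), a cell envelope protein of epithelia, the lipoprotein receptor family member Lrp8 (r = 0.83) and Palm (r = 0.82). With the group means removed r was 0.85 for Evpl, 0.59 for Lrp8 and 0.57 for Palm. For the Ascl2 candidate 1432018_PM_at these were the membrane serine protease St14 (r = 0.95), Ppm1f (r = 0.91) and Aifm2 (r = 0.91), with 0.83, 0.67 and 0.65 once group means were removed. For the candidate 1425225_PM_at they were Rhou (r = 0.98), Jdp2 (r = 0.97) and Rflnb (r = 0.96), with 0.97, 0.94 and 0.89 once group means were removed. The genes were all selected on the same group difference, which raises r before the group means are removed.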

How the data were processed

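RNA of sorted GMPs (under 20 ng per sample) was amplified and hybridised, per the labels' protocols. The deposited log2 values of 45037 probe sets on 11 arrays had array medians of 3.92 to 4.09 and correlations between arrays of 0.964 to 0.994. No source used here names a normalization method. The authors' deposited table holds a log2 fold change and a p-value per gene. None of its p-values for the 197 singly matched genes came within 1% of limma's on these arrays (0 genes). Probe sets were linked to genes only by equal log2 differences at 3 decimals. Gene symbols were those of the table, updated through RefSeq GRCm38.p6 (621 of 638 identifiers matched).

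The fit used limma 3.58.1 in R 4.3.3, with all 3 groups, no covariate and Benjamini-Hochberg adjustment over all probe sets, and had been tested on simulated data. SEs and p-values measure the spread between pools labelled as biological replicates. The number of arrays limits precision, and no detection calls were used. Arrays carry no batch or date. Same-numbered arrays deviated together (r over 0.1) in 1 of 10 pairs, so numbers were not taken as pairs. The named genes were the members, the Wnt list genes of the signature, Irf8 and, per member, the 3 genes with the most similar values. The rule named the brightest probe set per gene, which could not be applied without gene names. The members and lists were chosen with earlier results of these data known. Alternatives were 2 normalizations, a filter on dim probe sets, fits of 2 groups, other spread models, array weights, the replicate block and each array left out. The midpoint comparison and the shares and single calls under each setting were added after seeing the data.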

Additional observations from a re-analysis of the deposited data

Results flagged for a closer look

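In 64 groups of 4 arrays, the probe sets of the genes above were searched for an array far from the other 3 (Dixon's test at the 95% level), which chance finds in about 1 group in 20. Of these groups 5 had such an array. Control replicate 4 accounted for 3 of them. It was far above the other controls for Id2, at 5.62, and for the neutrophil gene Cd177, at 6.82, and far below them for the Ccnd2 candidate 1448229_PM_s_at, at 8.38. Replicate 2 of the Irf8 KO / b-cat(Ex3) group was far above its group for Sox4, at 6.66. Control replicate 3 was far above the other controls for the Ctnnbip1 candidate 1416136_PM_at, at 3.08.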

How the results depend on the processing

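Counts of called probe sets moved with the arrays used, and the Rnf43 and Ascl2 differences between the 3 groups kept their signs in every setting run, in contrast to the candidates of Fzd7 and Ccnd2. For Irf8 KO minus control 789 probe sets were called, 1658 with array weights, 347 to 1039 with each array left out and 658 with the replicate block. For Irf8 KO / b-cat(Ex3) minus Irf8 KO 2 were called, 0 when only these 2 groups were fitted with limma (2623 at an unadjusted p under 0.05), 1 to 10 with each array left out and 2 with the replicate block. For Irf8 KO / b-cat(Ex3) minus control 2761 were called, 4395 with array weights, 1477 to 3673 with each array left out and 2443 with the replicate block. The 45 calls of the Irf8 KO group against the midpoint became 21 with the replicate block and 8 to 54 with each array left out. The first comparison fell to 347 without Irf8 KO replicate 1, 444 without replicate 2 and 423, 441 and 477 without control replicates 1, 2 and 3, and the third to 1477, 1609 and 1608 without the same controls. The second rose to 10 only without Irf8 KO / b-cat(Ex3) replicate 2. The cause of these moves was not tested. Same-numbered arrays shared deviations in 1 of 10 pairs (r −0.23 to 0.17), so the block joins arrays that share only a number. With each array left out, the difference of Irf8 KO / b-cat(Ex3) from control ran from 0.90 to 1.498 for Rnf43 and from 1.14 to 1.65 or 1.28 to 1.68 for Ascl2. Of 638 recomputed differences of single genes and candidate ranges 632 kept within the limits set for them (1 SD between arrays or, for the midpoint, the same side of the threshold), and 6, all of Ccnd2 candidates, moved further. Averaging all probe sets of a gene was not run, because probe sets could not be assigned to genes. A fold of at least 1.5 left the number of genes of each Wnt list in the authors' deposited table as it was, since every row met it. The Ascl2 candidate 1432018_PM_at fell below the filter on dim probe sets. What limits these results is the unsettled probe sets of Ascl2, Fzd7 and Ccnd2, the 3 Irf8 KO arrays and the mixture of Irf8 loss with beta-catenin activation in the comparison that chose the genes.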
